A study of Mus musculus with 16 samples.

Results

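The levels of 10 genes of the intestinal crypt were followed: 5 markers of the crypt base stem cell (Lgr5, Olfm4, Ascl2, Smoc2 and Prom1), 3 feedback regulators of Wnt signaling (Axin2, Rnf43 and Znrf3) and 2 transcription factors of proliferating crypt cells (Sox9 and Myc). They were taken by gene symbol and not by a cut on their values, although earlier results of these data were known when they were chosen. They are 10 of the 54532 genes in the deposited table. Each symbol matched 1 gene, and each gene passed the filter on low counts in every comparison. RNA was sequenced from 16 cultures of mouse enteroids, which are 3-dimensional epithelial cultures grown from jejunal crypts, with 4 cultures to each of 4 groups. The methods give control, MYO5BΔIEC and treated cultures a shared genotype, so these groups may share mice. A legend of the study states that the 4 cultures of each group came from 4 mice. The labels do not say which mouse a culture came from, and p-values measure only the spread between these cultures, which may be partly technical. The strain carries Vil1-CreERT2, a Cre recombinase that the villin promoter expresses in intestinal epithelium and that 4-OH-tamoxifen activates. MYO5BΔIEC enteroids were Vil1-CreERT2;Myo5b flox/flox cultures in which Myo5b was deleted in the dish with 1 µM 4-OH-tamoxifen for 24 h. MYO5B(G519R) enteroids were Vil1-CreERT2;Myo5b flox/G519R cultures given the same drug, so that the G519R allele, which models a mutation found in a patient, was left as the single intact copy. A further set of MYO5BΔIEC cultures received 100 nM Compound-1, an agonist of the lysophosphatidic acid receptor LPAR5, for 2 days. The labels give the other MYO5BΔIEC cultures vehicle in its place, and untreated below means given this vehicle. The methods describe controls as Vil1-CreERT2;Myo5b flox/flox cultures with vehicle in place of 4-OH-tamoxifen, the study elsewhere calls them healthy littermates, and the sample records say only "Control". If no control received 4-OH-tamoxifen, the drug and the loss of normal MYO5B cannot be told apart in a comparison with control. All groups other than control are called MYO5B-deficient, or deficient, below. For MYO5B(G519R) this means a mutant MYO5B and not its absence. All mice were adult, and all cultures had been passaged 2 times. The RNA came after differentiation medium with 5% Noggin and 5% R-spondin conditioned medium, from which Wnt ligands and epidermal growth factor were withdrawn, so the genes were read in all groups in a medium low in Wnt ligand.

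Wnt ligands bind Frizzled and Lrp5 or Lrp6 at the cell surface, which frees β-catenin from a destruction complex and lets it act with TCF factors in the nucleus. The pathway maintains the stem cells at the crypt base, where Lgr5 serves as a receptor for R-spondins and Ascl2 as a transcription factor of stem cell identity. Axin2, a scaffold of the destruction complex, and Rnf43 and Znrf3, ubiquitin ligases that remove Frizzled from the surface, are Wnt targets that restrain the pathway, and R-spondins counter the 2 ligases. Olfm4, a secreted glycoprotein, marks the same stem cells but is known as a Notch target. For both models the study reported higher RNA of Notch1, Notch2, Notch3, Jag1 and Maml2 than in control, and Notch activity was not tested here.

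The regions upstream of 3 of these genes are shown because Olfm4 changed in the opposite direction to Rnf43, and Axin2 is the usual reporter of Wnt activity. RefSeq promoter sequences on GRCm38.p6 matched 5 of the 10 genes, and the 250 bases before each start were searched on both strands for the letters CTTTGAT and CTTTGAA (LEF/TCF), CACGTG (the E-box that MYC binds), TGGGAA (the core of the Notch effector RBPJ) and TATAA (the TATA box). The sequences below run 5′ to 3′ on the plus strand, from chr14:80000052-80000301 for Olfm4, chr11:87662837-87663086 for the first of 2 starts of Rnf43 and chr11:108920099-108920348 for Axin2, and capitals mark the motifs found.
Olfm4: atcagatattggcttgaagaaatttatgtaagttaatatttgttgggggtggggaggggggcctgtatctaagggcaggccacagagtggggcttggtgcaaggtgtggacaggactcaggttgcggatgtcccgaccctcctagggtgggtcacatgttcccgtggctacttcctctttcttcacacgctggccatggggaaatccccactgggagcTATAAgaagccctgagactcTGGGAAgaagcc
Rnf43: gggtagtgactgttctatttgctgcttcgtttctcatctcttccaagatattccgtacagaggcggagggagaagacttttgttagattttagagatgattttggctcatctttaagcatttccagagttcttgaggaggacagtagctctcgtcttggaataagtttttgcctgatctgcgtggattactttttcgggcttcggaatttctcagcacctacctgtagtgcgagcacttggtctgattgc
Axin2: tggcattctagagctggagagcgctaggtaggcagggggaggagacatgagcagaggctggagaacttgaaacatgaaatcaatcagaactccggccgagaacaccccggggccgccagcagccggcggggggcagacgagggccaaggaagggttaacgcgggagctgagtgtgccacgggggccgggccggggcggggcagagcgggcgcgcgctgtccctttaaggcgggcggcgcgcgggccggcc
Olfm4 held TATAA from 32 bases and TGGGAA from 12 bases before the start, letters that 22.8% and 21.6% of all 32851 promoter windows hold on either strand. Prom1 also held the RBPJ letters, as the reverse complement TTCCCA from 116 bases before a start. Neither LEF/TCF spelling nor CACGTG was found in any window of the 5 genes, and 7.48% of all windows hold a LEF/TCF spelling and 6.02% hold CACGTG. The Olfm4 start in RefSeq lies inside the longer span that the deposited table gives the gene (GRCm38 chromosome 14, 79984081 to 80023139, plus strand).

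Between 27804968 and 40101729 reads were counted per culture, and each of the 10 genes had from 415 to 154129 counts in every culture, so counting error was small beside the spread between cultures. Levels are CPM, each count as a share of its library's total after TMM scaling in edgeR. Myo5b itself was counted over the whole gene, and neither the methods nor the labels say which exons were deleted. How complete the deletion was in each culture was not tested. Myo5b was at 159.8, 229.7, 191 and 176 CPM in control cultures 1 to 4 and at 135, 109, 169.6 and 101 in MYO5BΔIEC. It was at 139, 153, 173 and 136 CPM in MYO5B(G519R) and at 149, 106, 87.2 and 101 in treated enteroids. MYO5BΔIEC culture 3 was above control culture 1, so these groups overlap, and the log2 fold change of -0.55 (SE 0.19) missed the threshold (edgeR adjusted p = 0.0503). It was -0.33 (edgeR adjusted p = 0.109) in MYO5B(G519R) and -0.77 (edgeR adjusted p = 0.0146) in treated enteroids. Control culture 1 stood apart: its log2 CPM correlated with the other controls at r = 0.938 to 0.947, against 0.987 to 0.992 among those 3. It had 3671 CPM over 10 enterocyte markers and 3430 over 8 Paneth cell markers, where the other controls had 13669.5 to 17131 and 7099.6 to 8233, and 719 CPM over 10 fetal and regenerative genes, where they had 196 to 245. Mitochondrially encoded genes took 6.41% to 10.4% of counts in control and 3.79% to 6.63% in the other groups, and fold changes against control increased with gene length (Spearman correlation across genes, 0.339 in MYO5BΔIEC and 0.323 in MYO5B(G519R)). What part these differences have in the results was not tested beyond the alternatives given beside them.

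Olfm4 was by far the most abundant of the 10 genes. In FPKM, the deposited unit that corrects for both library size and gene length, its level in control was 1225 ± 545 (SD, n = 4). The next level, 39.8 ± 19.1 FPKM, was that of Myc, and Prom1 (38.0 ± 6.58), Smoc2 (32.2 ± 5.23), Ascl2 (21.0 ± 5.68), Axin2 (20.1 ± 4.04), Lgr5 (17.4 ± 6.99), Rnf43 (15.0 ± 0.564) and Sox9 (14.4 ± 2.71) followed. Znrf3 was lowest at 2.46 ± 0.793 FPKM. Each neighbouring pair from Myc to Sox9 overlapped between control cultures, so only Olfm4 at the top and Znrf3 at the bottom were separate from their neighbours in this order. In MYO5BΔIEC enteroids Olfm4 was still first, at 260.0 ± 163 FPKM.

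Olfm4 (ENSMUSG00000022026) fell in every MYO5B-deficient group. It was at 1570.0, 3749, 3946 and 5712 CPM in control cultures 1 to 4. MYO5BΔIEC cultures had 1293, 397, 318 and 1099.7 CPM, MYO5B(G519R) cultures 1283, 1191, 573 and 1801 CPM, and treated cultures 1045, 781, 228 and 639.6 CPM. All MYO5BΔIEC and treated cultures were below all controls, whereas MYO5B(G519R) culture 4 was above control culture 1. Relative to control, the log2 fold change was -2.26 (SE 0.51 and adjusted p 0.00896 by edgeR) in MYO5BΔIEC, a level 4.80-fold lower, and -1.63 (SE 0.41 and adjusted p 0.0174 by edgeR) in MYO5B(G519R), 3.09-fold lower. The MYO5B(G519R) call was lost without control culture 4 (edgeR adjusted p = 0.0508) and without MYO5B(G519R) culture 2 (edgeR adjusted p = 0.0511), with log2 fold changes of -1.35 and -1.62. In bulk RNA, fewer stem cells and less Olfm4 RNA per cell cannot be told apart.

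The other 4 stem cell markers did not pass the test against control in either model. Lgr5, the R-spondin receptor (ENSMUSG00000020140, GRCm38 chromosome 10, 115450311 to 115587780, minus strand), was at 286, 123, 162 and 161 CPM in control, 219, 215, 210.2 and 167 in MYO5BΔIEC cultures, 272, 256, 211 and 161 in MYO5B(G519R), and 258, 128, 55.8 and 155 in treated cultures. Control culture 1 was the highest of all 16 cultures for Lgr5, and the other 3 controls were below all MYO5BΔIEC cultures. The log2 fold change with all controls was 0.16 (SE 0.24 and adjusted p 0.665 by edgeR) in MYO5BΔIEC and 0.30 (SE 0.26 and adjusted p 0.431 by edgeR) in MYO5B(G519R). Ascl2 (ENSMUSG00000009248, chromosome 7, 142966829 to 142969264, minus strand) was at 47.6, 28.8, 34.9 and 28.3 CPM in control, 33.9, 23.8, 14.7 and 34.1 in MYO5BΔIEC cultures, 33.7, 35.4, 26.6 and 38.8 in MYO5B(G519R), and 33.0, 34.6, 16.3 and 29.5 in treated cultures. Its 95% interval in MYO5BΔIEC ran from -0.97 to 0.21 on the log2 scale around -0.38, which leaves its direction undetermined, and culture 3 had the lowest level of all 16.

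Smoc2, a secreted calcium-binding protein of the stem cell signature (ENSMUSG00000023886, chromosome 17, 14279506 to 14404790, plus strand), was at 263, 182, 224 and 250.2 CPM in control, 253, 217, 195 and 263 in MYO5BΔIEC cultures, 300.0, 292, 221 and 316 in MYO5B(G519R), and 259, 219, 106 and 197 in treated cultures. Control and MYO5BΔIEC cultures spanned almost the same range, and the log2 fold change was 0.02 (95% interval -0.34 to 0.38). Prom1, a pentaspan membrane protein found in stem and early progenitor cells (ENSMUSG00000029086, chromosome 5, 43993620 to 44102032, minus strand), was at 286, 219.8, 276 and 340.3 CPM in control, 227, 219, 244 and 187 in MYO5BΔIEC cultures, 289, 219, 279 and 246 in MYO5B(G519R), and 329, 176, 373 and 326 in treated cultures. Of the 4 MYO5BΔIEC cultures, 3 were at or below 227 CPM, but control culture 2 was there too, and the log2 fold change of -0.35 (SE 0.16) had an edgeR adjusted p of 0.135, although it passed once the trend on gene length was removed.

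**Figure D1:**
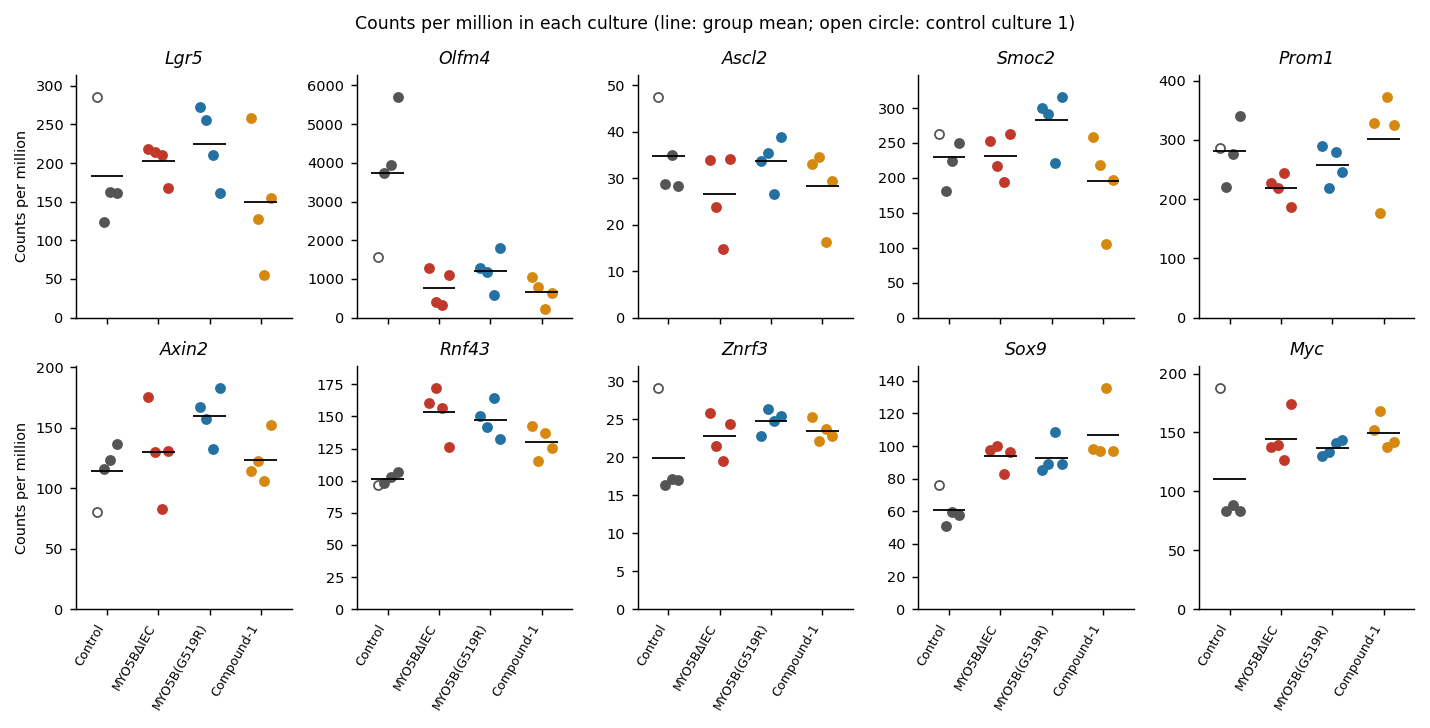
Level of each gene in CPM (y axis, from 0) in the 4 cultures of each group (x axis), with a line at the group mean and an open circle for control culture 1. Olfm4 is at or below 1801 in the 12 MYO5B-deficient cultures and at 3749 or more in control cultures 2 to 4, Rnf43 and Sox9 are above all controls in them, and control culture 1 is far above the other controls for Lgr5, Znrf3 and Myc.

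The count of Olfm4 was also set against that of each other stem cell marker within a culture, which removes library size. These ratios were added after the values had been seen. Olfm4 was counted 5.96, 20.6, 17.6 and 22.8 times as often as Smoc2 in control cultures, 5.10, 1.83, 1.63 and 4.19 times in MYO5BΔIEC, 4.28, 4.08, 2.59 and 5.69 times in MYO5B(G519R), and 4.04, 3.56, 2.15 and 3.25 times in treated cultures. All 12 MYO5B-deficient cultures were below all 4 controls, with log2 differences of -2.40, -1.90 and -2.23 (two-sided exact permutation test, p = 0.0286 for each group of 4 against 4, the smallest p this design allows). After Benjamini-Hochberg adjustment over the 24 ratio comparisons each of these p-values was 0.137, so none passed (exact permutation test). The ratio to Lgr5 was 5.49, 30.4, 24.4 and 35.5 in control and 5.91, 1.85, 1.51 and 6.58 in MYO5BΔIEC, where control culture 1 fell among the deficient cultures (log2 difference -2.59, exact permutation p = 0.0857, adjusted 0.187). Control culture 1 was likewise among the deficient cultures for the ratio to Ascl2, at 33.0 where the other controls had 113 to 202 and the deficient cultures 14.0 to 46.4. For the ratio to Prom1 it was at 5.49, the other controls at 14.3 to 17.1 and the deficient cultures at 0.610 to 7.32, so Smoc2 was the only marker of the 4 whose ratio separated control from all 3 groups.

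**Figure D2:**
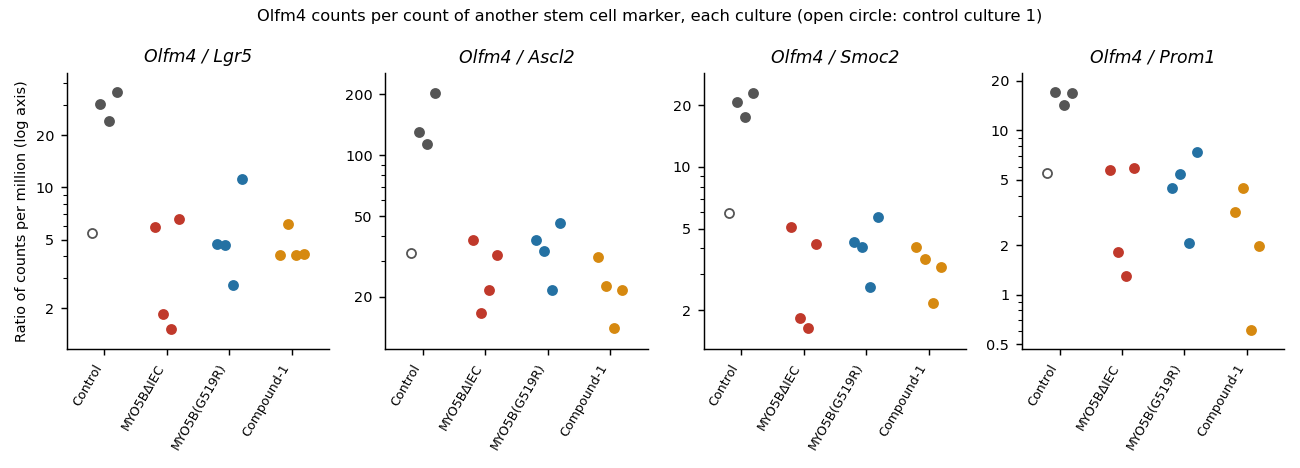
Ratio of Olfm4 CPM to that of Lgr5, Ascl2, Smoc2 and Prom1 (y axes, log scale) in each culture of the 4 groups (x axis), with an open circle for control culture 1. Control cultures 2 to 4 lie above every other culture in each panel, and control culture 1 lies above all deficient cultures for Smoc2 (5.96 against at most 5.69) but among them for Lgr5, Ascl2 and Prom1.

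Among the feedback regulators, Rnf43 was the 1 that passed the test. The gene (ENSMUSG00000034177, chromosome 11, 87662722 to 87735539, plus strand) was at 96.6, 98.4, 103 and 107 CPM in control, 160.2, 172, 157 and 126 in MYO5BΔIEC cultures, 150.3, 142, 164 and 132 in MYO5B(G519R), and 143, 115, 137 and 125 in treated cultures. The control mean was 101 ± 4.74 CPM (SD, n = 4), and every deficient culture was above all of them. Rnf43 rose by a log2 fold change of 0.61 (SE 0.13 and adjusted p 0.00821 by edgeR), or 1.53-fold, in MYO5BΔIEC and 0.54 (SE 0.11 and adjusted p 0.0062 by edgeR), or 1.45-fold, in MYO5B(G519R), and both calls held in each fit that left out 1 culture. An intronic transcript on the same strand, 1110028F11Rik, had counts equal to 5.29% of those of Rnf43, and for the other members each overlapping gene had under 1 percent.

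Znrf3, the paralog of Rnf43 with the same function (ENSMUSG00000041961, chromosome 11, 5276324 to 5444847, minus strand), was at 29.1, 16.4, 17.2 and 17.0 CPM in control, 25.8, 21.5, 19.5 and 24.4 in MYO5BΔIEC cultures, 22.8, 26.3, 24.8 and 25.4 in MYO5B(G519R), and 25.3, 22.2, 23.8 and 22.7 in treated cultures. Control culture 1 exceeded all other cultures, and the other 3 controls were below all deficient cultures. With all 4 controls its log2 fold changes were 0.20 (SE 0.20 and adjusted p 0.506 by edgeR) and 0.32 (SE 0.19 and adjusted p 0.245 by edgeR) in the 2 models. Axin2 (ENSMUSG00000000142, chromosome 11, 108920349 to 108950783, plus strand) was at 80.6, 116, 123 and 137 CPM in control, 175, 129.8, 83.2 and 131 in MYO5BΔIEC cultures, 167, 157, 132 and 183 in MYO5B(G519R), and 114, 123, 106 and 152 in treated cultures. In MYO5B(G519R), 3 cultures were above every control, and culture 3 was below control culture 4. Its log2 fold change was 0.49 (SE 0.17 and adjusted p 0.0591 by edgeR) there and 0.19 (SE 0.23 and adjusted p 0.578 by edgeR) in MYO5BΔIEC, whose cultures ranged more widely. The MYO5B(G519R) value passed in 4 of 11 alternatives. The Rnf43 count relative to Axin2 or to Znrf3 was not separate between control and either model (log2 differences 0.43 and 0.37 in MYO5BΔIEC, 0.03 and 0.18 in MYO5B(G519R), exact permutation p = 0.171 to 0.857), so the call for Rnf43 is not shown to differ from its 2 neighbours in the pathway.

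Sox9, a transcription factor of crypt progenitors, Paneth cells and stem cells (ENSMUSG00000000567, chromosome 11, 112782224 to 112787760, plus strand), rose in all 3 deficient groups. It was at 76.2, 50.8, 59.4 and 57.9 CPM in control, 97.5, 100.1, 82.8 and 96.2 in MYO5BΔIEC cultures, 85.2, 88.8, 109 and 88.8 in MYO5B(G519R), and 98.1, 96.8, 135 and 97.0 in treated cultures. No deficient culture came down to the highest control, culture 1. Its log2 fold change was 0.63 (SE 0.15 and adjusted p 0.011 by edgeR) in MYO5BΔIEC, 0.60 (SE 0.14 and adjusted p 0.0137 by edgeR) in MYO5B(G519R) and 0.81 (SE 0.17 and adjusted p 0.00874 by edgeR) in treated enteroids. All 3 calls held in each fit without 1 culture and in each of the 11 other alternatives.

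Myc, a driver of growth and ribosome production and a Wnt target (ENSMUSG00000022346, chromosome 15, 61985391 to 61990374, plus strand), was at 188, 83.2, 88.1 and 83.2 CPM in control, 138, 139.6, 127 and 174 in MYO5BΔIEC cultures, 130.3, 133, 141 and 144 in MYO5B(G519R), and 152, 168, 137 and 142 in treated cultures. Control culture 1 was the highest of all 16, and the other controls were the lowest 3. With all controls the log2 fold changes were 0.40 (SE 0.26 and adjusted p 0.286 by edgeR) and 0.31 (SE 0.25 and adjusted p 0.395 by edgeR) in the 2 models.

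In MYO5BΔIEC against control, 3 of the 10 genes thus passed the test, 2 upward and 1 downward, and the same 3 did not overlap between the groups. Of all 17951 genes tested, 27.4% passed, 13.5% upward and 13.8% downward, and 26.9% did not overlap, so the share among the 10 genes is near the background. Their median log2 fold change was 0.17, beside -0.01 over all genes. In MYO5B(G519R) against control, 3 of 10 passed where 26.8% of 17829 genes did, 2 did not overlap where 27.4% did, and the median was 0.30 beside -0.05. Olfm4, Rnf43 and Sox9 were the 3 genes in both, and the 2 comparisons share their control cultures. Treated MYO5BΔIEC against the same controls gave 2 of 10 where 29.4% of 17937 genes passed, namely Olfm4 (log2 fold change -2.48, SE 0.48 and adjusted p 0.00632 by edgeR) and Sox9, with a median of 0.11 beside -0.05. Rnf43 did not overlap with control there either, as 27.9% of genes did not, but its log2 fold change of 0.36 (SE 0.13) had an edgeR adjusted p of 0.0548 and passed in 6 of 11 alternatives.

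**Figure D3:**
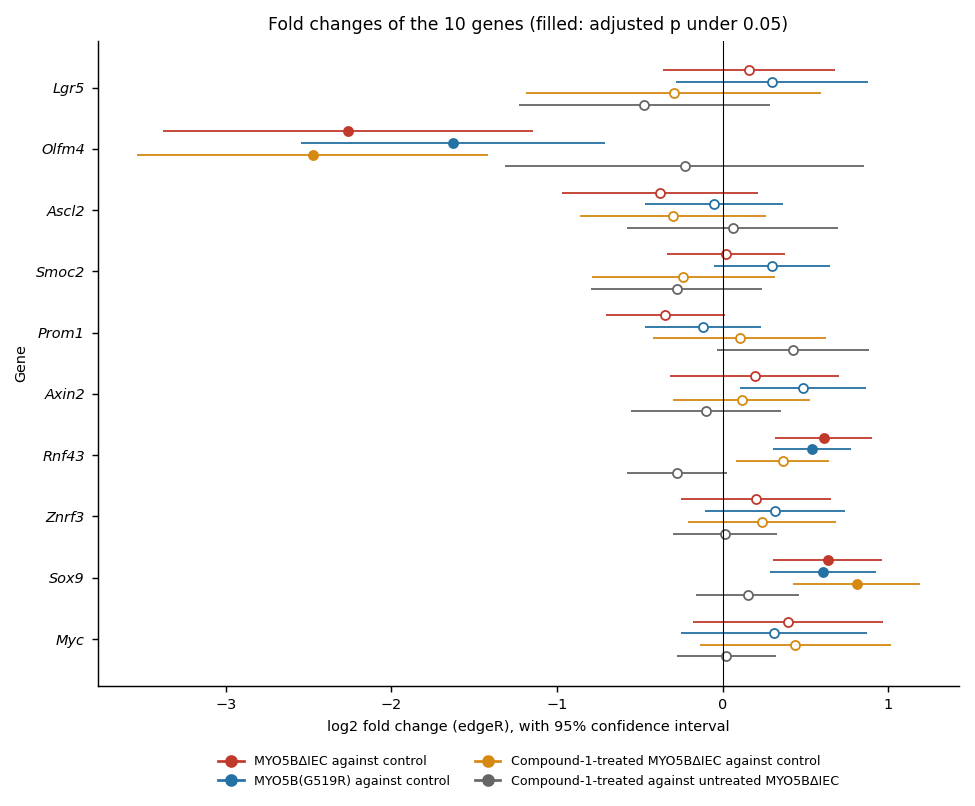
Log2 fold change of each gene with its 95% confidence interval (x axis) in 4 comparisons, with filled points where the edgeR adjusted p was under 0.05. Olfm4 lies at -2.26, -1.63 and -2.48 against control, and all intervals of treated against untreated MYO5BΔIEC include 0.

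Compound-1 was compared with untreated MYO5BΔIEC to ask whether LPAR5 activation moved these genes. None of the 10 passed edgeR's test, as 0% of all 18037 genes did, and none had an unadjusted p under 0.05, where 1355 genes had one. DESeq2 passed 91 genes and limma on FPKM 0, and none of the 10 was among them. No member was free of overlap between treated and untreated cultures, where 2.86% of genes were. The fold changes were imprecise for most stem cell markers, with 95% log2 intervals of -1.31 to 0.85 for Olfm4, -1.23 to 0.28 for Lgr5, -0.58 to 0.70 for Ascl2 and -0.04 to 0.88 for Prom1. They were narrower for Znrf3 (-0.30 to 0.33), Myc (-0.28 to 0.32) and Sox9 (-0.16 to 0.46), and Rnf43 was at -0.27 (-0.58 to 0.03). The median over the 10 genes was -0.04, beside 0.00345 over all genes. Treated culture 3 was the lowest of its group for 6 genes, among them Lgr5 at 55.8 and Olfm4 at 228 CPM, and the highest for Sox9 and Prom1. It also had 1275 CPM over 14 proliferation genes and 3144 over the fetal and regenerative genes, the lowest and the highest sum of all 16 cultures. Without it the log2 fold change was 0.06 for Olfm4 in place of -0.23, and -0.20 for Lgr5 in place of -0.47. The fetal and regenerative sum was also high in treated cultures 1, 2 and 4, at 1108, 1027 and 1426 CPM. The highest sum outside the treated group was 903 CPM, in MYO5B(G519R) culture 3. In treated against untreated, 8 of 9 tested genes of that list were above 0, with a median of 0.79. None of them passed, and 3 did not overlap, beside the 2.86% of all genes.

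MYO5B(G519R) was compared directly with MYO5BΔIEC because both models lack normal MYO5B. None of the 10 genes passed, beside 0.00557% of 17943 genes (1 gene), none had an unadjusted p under 0.05, where 772 genes had one, and DESeq2 passed 4 genes and no member. None was free of overlap, as 1.85% of genes were. The largest difference was that of Olfm4, at 0.64 (95% interval -0.34 to 1.62), an interval that includes both 0 and a level well above that of MYO5BΔIEC. Sox9 (-0.02, -0.27 to 0.23) and Rnf43 (-0.07, -0.33 to 0.20) had the tightest intervals besides Myc (-0.08, -0.33 to 0.17).

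How many genes passed rested on control culture 1. It was the highest control for 6 of the 10 genes and the lowest for 3, namely Olfm4, Axin2 and Rnf43. Without it, 6 genes passed in MYO5BΔIEC where 42.0% of 17783 genes did (21.2% upward and 20.8% downward): Lgr5 (log2 fold change 0.45, SE 0.14 and adjusted p 0.0256 by edgeR), Znrf3 (0.44, SE 0.14 and adjusted p 0.0269 by edgeR) and Myc (0.77, SE 0.13 and adjusted p 0.000646 by edgeR) joined Olfm4 (-2.52), Rnf43 (0.59) and Sox9 (0.76). In MYO5B(G519R) 8 passed without it, where 46.2% of 17647 genes did (24.0% upward and 22.1% downward), with Lgr5 at 0.63, Smoc2 at 0.40, Axin2 at 0.38, Znrf3 at 0.59 and Myc at 0.72 beside Olfm4 (-1.85), Rnf43 (0.55) and Sox9 (0.76). In treated enteroids 5 passed, where 42.1% of 17718 genes did (22.9% upward and 19.2% downward), Rnf43, Znrf3 and Myc being added. Ascl2 and Prom1 passed in none of these. Fits without any other single culture gave 2 or 3 genes against control, and whether it is a fair control was not tested.

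**Figure D4:**
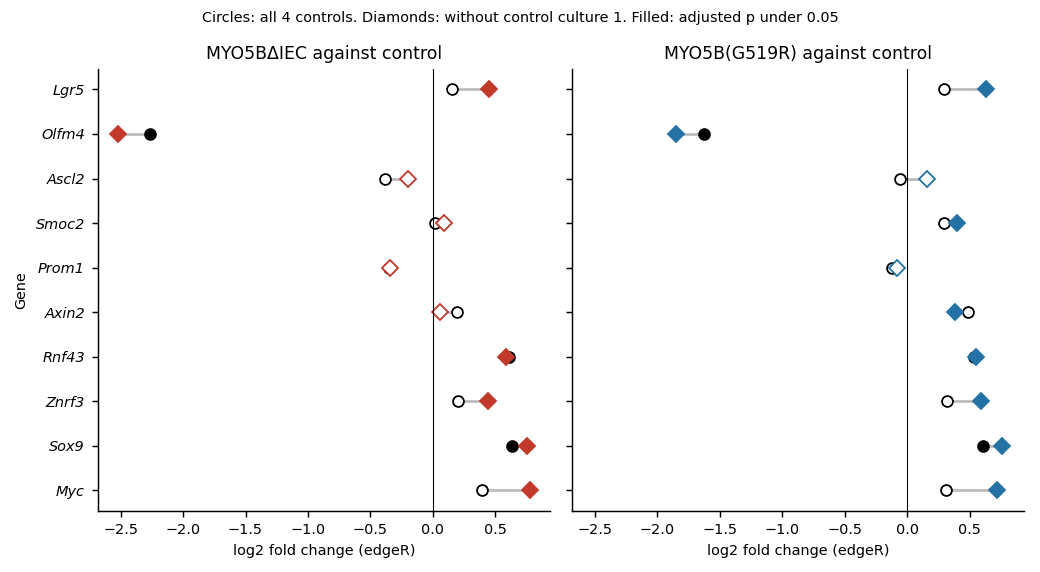
Log2 fold change of each gene (x axis) in the 2 models against all 4 controls (circles) and against controls 2 to 4 (diamonds), filled where the edgeR adjusted p was under 0.05. Lgr5, Znrf3 and Myc move to the right and become filled in both panels, and Olfm4, Rnf43 and Sox9 are filled either way.

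The rest of the Wnt pathway was read from 7 lists of 84 genes, of which 58 could be tested. In MYO5BΔIEC 18 of the 58 (31.0%) rose and 1 fell, 49 were above 0 and the median log2 fold change was 0.52, beside 13.5% and 13.8% of all genes and a median of -0.01. In MYO5B(G519R) 19 (32.8%) rose and none fell, beside 13.1% and 13.7%, and the median was 0.47. With the trend on gene length removed the counts were 14 and 18 upward and 2 and 1 downward. Of all genes, 2370 of 17951 and 2409 of 17829 then rose, and 2407 and 2498 fell. Without control culture 1 the counts were 26 and 31 upward, beside 21.2% and 24.0% of all genes. Treated against untreated MYO5BΔIEC, no gene of 59 passed and the median was -0.03.

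By role, all 5 nuclear partners of β-catenin that could be tested were above 0 in MYO5BΔIEC. Of these 4 rose, and they, like all others named here by list, were picked out after their values were seen: the coactivators Bcl9 (log2 fold change 1.12), Bcl9l (1.41) and Pygo2 (0.71), and the transcription factor Tcf7l2 (0.92). All 4 also rose in MYO5B(G519R), at 1.09, 1.45, 0.78 and 0.71, where Tcf7 (0.60) rose too. Of 13 cytoplasmic regulators, all 13 were above 0 in MYO5BΔIEC and 5 rose, from Dvl1 at 0.39 to Tnks at 0.73, with Ctnnb1, which encodes β-catenin, at 0.45. With the trend on gene length removed, 2 of these 13 rose. The other roles are given here without that removal. In MYO5B(G519R) 6 of the 13 rose, where Ctnnb1 was at 0.34 (edgeR adjusted p = 0.0713). Of the receptors, Lrp5 (1.26), Lrp6 (0.60), Ror2 (0.87) and Fzd10 rose among 14 in MYO5BΔIEC, and Lrp5 (1.32), Ror2 (0.92) and Fzd5 (0.45) among 13 in MYO5B(G519R). Among 7 further target genes, 4 rose in each model, of which Ccnd1 (0.93 and 0.63), Ephb2 (0.77 and 0.86) and Ephb3 (0.72 and 0.84) rose in both, Cd44 (0.76) in MYO5BΔIEC and Sp5 (0.66) in MYO5B(G519R). Ccnd1 encodes cyclin D1, and Ephb2 and Ephb3 are receptors that position cells along the crypt axis. Wnt ligands were sparse: of 21 genes of ligands and their secretion 12 could be tested, and Wnt7b alone rose in MYO5BΔIEC, from 0.0958 to 0.758 CPM on average. Its control mean is within the 0.0737 to 0.111 CPM that a count of 0 allows, so this rise rests on few reads. No gene of this list passed in MYO5B(G519R), where 11 could be tested. Of R-spondins and other Lgr receptors, 2 of 6 could be tested and neither passed, with Lgr4 at 0.32 and 0.24. Of 5 secreted inhibitors tested, Sfrp5 fell in MYO5BΔIEC and Apcdd1 rose in MYO5B(G519R) (0.78).

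By the rule of the largest changes in MYO5BΔIEC, 4 genes of the pathway, stem cell and regenerative lists are given in full. Gja1, which encodes connexin 43, ranged from 0.0320 to 0.332 CPM in control and 0.360 to 4.32 in MYO5BΔIEC, a log2 fold change of 3.42 (SE 0.77 and adjusted p 0.00918 by edgeR), and was at 2.72 (edgeR adjusted p = 0.0449) in MYO5B(G519R). Fzd10, a Wnt receptor, had at most 4 counts in a control culture and at most 17 in a MYO5BΔIEC culture, so its fitted log2 fold change of 3.25 (SE 1.10 and adjusted p 0.0486 by edgeR) rests on few reads, and it did not pass without control culture 1 (edgeR adjusted p = 0.0562). Gkn3, a stem cell marker of the gastrokine family, ranged from 1.88 to 26.0 CPM in control and 2.69 to 5.33 in MYO5BΔIEC (-1.72, SE 0.58 and adjusted p 0.0491 by edgeR), and was at -1.41 in MYO5B(G519R) (edgeR adjusted p = 0.0985). Without control culture 1, Gkn3 passed in both, at -2.09 in MYO5BΔIEC and -1.75 in MYO5B(G519R) (edgeR adjusted p = 0.00029 and 0.00042). Sfrp5, a secreted Wnt antagonist, ranged from 4.55 to 20.9 CPM in control and 1.42 to 4.94 in MYO5BΔIEC (-1.72, SE 0.52 and adjusted p 0.0329 by edgeR), and was at -1.04 in MYO5B(G519R) (edgeR adjusted p = 0.217) and -2.53 in treated against control (edgeR adjusted p = 0.00742). None of the 4 passed in treated against untreated MYO5BΔIEC.

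The lists of other stem cell markers, MYC targets and proliferation genes had medians below 0 in both models. All lists in this paragraph are given without removal of the trend on gene length, by which fold changes against control increased with length. Of all genes, 13.5% passed upward and 13.8% downward in MYO5BΔIEC, and 13.1% and 13.7% in MYO5B(G519R). Of 11 further stem cell markers none rose in MYO5BΔIEC and 3 fell, namely Aqp4 (-1.03), Cdca7 (-0.71) and Gkn3, with a median of -0.37. In MYO5B(G519R) Aqp4 fell by 0.65 on the log2 scale and Msi1 rose by 1.03. Of 13 MYC targets 7 fell in MYO5BΔIEC and 1 rose, with a median of -0.49, and 6 fell and 1 rose in MYO5B(G519R), with a median of -0.37, while Myc itself was at 0.40 and 0.31. The nucleolar genes Nop58 (-1.10 and -0.96), Nop56 (-0.88 and -0.63) and Npm1 (-1.08 and -0.79) fell in both models, and Cad, which encodes an enzyme of pyrimidine synthesis, rose (1.01 and 1.10). Of 14 proliferation genes 6 fell and none rose in MYO5BΔIEC (median -0.38), and 4 fell and 1, Aurkb, rose in MYO5B(G519R) (median -0.15). Mki67 was at -0.22 and 0.20, neither past the threshold (edgeR adjusted p = 0.256 and 0.221). Of 9 fetal and regenerative genes tested, 5 rose in MYO5BΔIEC and 4 in MYO5B(G519R), with Clu, a marker of regenerating crypts, at 2.25 and 2.57. Without control culture 1, 8 of them rose in each model. Of 5 reserve stem cell markers, Lrig1 rose (0.43 and 0.70) and Hopx fell (-0.70 and -0.58). Without control culture 1, 8 MYC targets fell in each model while 2 and 3 rose. In the same fits 6 and 4 proliferation genes fell while none and 3 rose, and 3 other stem cell markers fell in each while 1 and 2 rose. Those counts stand beside 21.2% of all genes upward and 20.8% downward in MYO5BΔIEC, and 24.0% and 22.1% in MYO5B(G519R), without control culture 1.

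**Figure D5:**
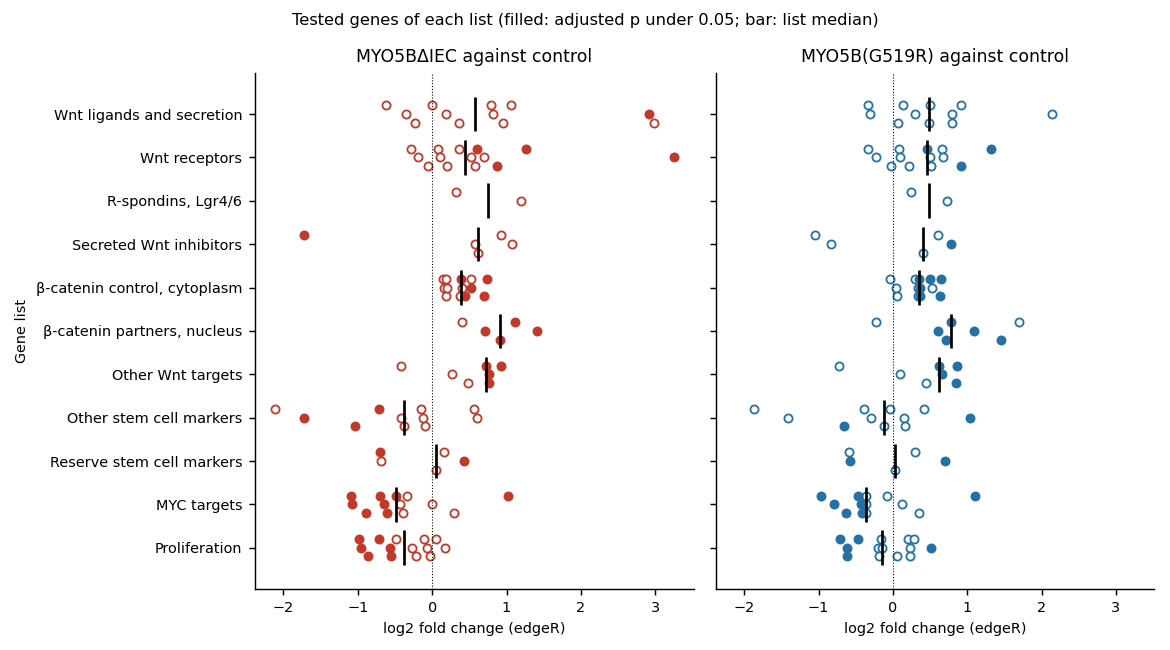
Log2 fold change (x axis) of each tested gene in 11 lists (y axis) for the 2 models against control, filled where the edgeR adjusted p was under 0.05, with a bar at the list median. Medians of the 7 Wnt lists lie to the right of 0 in both panels, and those of other stem cell markers, MYC targets and proliferation genes to the left. The trend on gene length was not removed.

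The cultures could hold several epithelial types that also express these genes, Sox9 being found in Paneth and tuft cells as well. The counts below stand beside 13.5% of all genes upward and 13.8% downward in MYO5BΔIEC, and 13.1% and 13.7% in MYO5B(G519R). These shares were 21.2% and 20.8%, and 24.0% and 22.1%, without control culture 1. Of 8 Paneth cell markers, Itln1 (-0.83 and -0.96) and Lyz1 (-0.75 and -0.89) fell in both models and none rose. Of 4 tuft cell markers tested, 1 fell in each model and none rose. The summed level of the Paneth cell markers was 3430 to 8233 CPM in control. In the MYO5BΔIEC cultures it was 3285 to 4916 and in MYO5B(G519R) 3439 to 4386 CPM, and the part of these cells in the values of Sox9 was not tested. Without control culture 1, 5 of the 8 Paneth cell markers fell in MYO5BΔIEC and 8 in MYO5B(G519R). Of 10 enterocyte markers 2 rose and none fell in MYO5BΔIEC, and 1 rose and 1 fell in MYO5B(G519R). Without that culture 2 rose and 2 fell in MYO5BΔIEC, and 1 rose and 5 fell in MYO5B(G519R). Goblet cell markers gave 2 higher and 1 lower of 6 in MYO5BΔIEC and 2 of each in MYO5B(G519R), and enteroendocrine markers 2 and 1 higher of 4. Of 6 epithelial markers 3 rose in each model, and 4 and 5 did without control culture 1. Mesenchymal markers, which would mark a source of Wnt ligands, summed to at most 0.956 CPM, with 3 of 6 at 0 in all 16 cultures. However, the 1 that could be tested in MYO5B(G519R), Col1a1, rose there (2.39), on at most 17 counts in a culture. Endothelial markers summed to at most 1.76 CPM and smooth muscle markers to at most 1.35 CPM. For immune markers the sum ranged from 3.86 to 5.45 CPM over control cultures and from 5.69 to 11.3 over MYO5BΔIEC cultures, where Cd68 rose. At these depths a count of 0 allows up to 0.0737 to 0.111 CPM, which covers counting error only.

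The genes whose levels over the 16 cultures followed Lgr5, Axin2 and Myc most closely were found by the root mean square difference of log2 CPM, each gene centred on its own mean, among 13544 genes of at least 1 CPM on average. Lgr5 varied with an SD of 0.58 on the log2 scale, and the nearest genes were Pde1b (difference 0.20), Hmga2 (0.21) and Ak4 (0.27). Axin2 varied with an SD of 0.34, and Mum1 (0.12), Chaf1a (0.13) and Nabp2 (0.14) were nearest. Myc varied with an SD of 0.35, and Slc15a4, Purb and Ubr2 were nearest, each at 0.11. These are descriptions over shared libraries, with no test.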

How the data were processed

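Bulk RNA was sequenced from 16 enteroid cultures in 4 groups of 4, and 1 deposited table held counts per gene with gene lengths and another held the authors' FPKM. Per the submitters' processing notes, reads were aligned to GRCm38 (mm10) with STAR 2.5, and the authors made the deposited counts per gene with HTSeq 0.6.1; TopHat and DESeq2 are also named there. The deposited FPKM values are fragments scaled to gene length and library size, as the authors computed them. Every sample column was used (unused columns, 0).

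From the counts, a gene was kept where 2 or more libraries of a comparison had 10 or more counts of it, library sizes were scaled by TMM, and groups were compared with edgeR 4.0.16 (quasi-likelihood test, R 4.3.3) with Benjamini-Hochberg adjustment over all genes tested and a threshold of 0.05. Each comparison was fitted on its own 2 groups. Alternatives were DESeq2 1.42.0, limma 3.58.1 on log2(FPKM + 1) or log2(FPKM + 0.1), other filters and library sizes, removal of the trend on gene length, all groups in one fit, a replicate block, and each culture left out in turn. Scripts were tested on simulated data. Tables and plots used Python 3.11.15, pandas 2.3.3 and matplotlib 3.10.9. Nothing in the labels ties a replicate number to a mouse. Correlations of the deviations of same-numbered cultures were not over 0.1 for every number in any comparison, so the numbers were not taken to pair the cultures.

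The 10 genes, the gene lists and the tests were chosen with earlier results of these data known. All 10 genes are named. From the pathway, stem cell and regenerative lists, the 2 largest positive and 2 largest negative changes past the threshold in MYO5BΔIEC against control are named, and for Lgr5, Axin2 and Myc the 3 genes most like each over the 16 cultures (log2 of CPM + 0.1, mean of at least 1 CPM). The ratios, the RBPJ and TATA letters and the list counts without control culture 1 were added after values had been seen. Of 12 fetal and regenerative symbols, 10 were found in the table. Promoter sequences were RefSeq's, on GRCm38.p6, and were cut to the 250 bases before each start. The depth was 27804968 to 40101729 counts per library.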

Additional observations from a re-analysis of the deposited data

Results flagged for a closer look

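In 5 of 40 groups of 4 cultures, 1 culture lay far from the other 3 by Dixon's ratio of its gap to the whole range (above the 95% critical value). The 40 groups are 10 genes read in the same 16 cultures, so they are not independent, and no rate by chance is set beside them. Of the 5 flagged cultures, 2 were control culture 1. It was far above the other controls for Znrf3 (ratio 0.936, 29.1 CPM against 16.4 to 17.2) and for Myc (ratio 0.953, 188 CPM against 83.2 to 88.1). For Lgr5, MYO5BΔIEC culture 4 was low (ratio 0.836, 167 CPM against 210.2 to 219). For Sox9, culture 3 was high both in MYO5B(G519R) (ratio 0.847, 109 CPM against 85.2 to 88.8) and in Compound-1-treated MYO5BΔIEC (ratio 0.967, 135 CPM against 96.8 to 98.1). The calls for Sox9 held without either of these cultures.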

How the results depend on the processing

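Over the 10 genes, 5 comparisons and all alternatives, 893 values kept their direction and their side of the threshold, 31 changed direction, 23 newly passed and 3 no longer passed. Each of the 6 changes of direction outside the fits that left out a culture came from removing the trend on gene length, and each concerned a value that did not pass: Lgr5 (-0.050) and Smoc2 (-0.13) in MYO5BΔIEC and Ascl2 (0.13) in MYO5B(G519R), all against control, Myc (-0.000815) in treated against untreated MYO5BΔIEC, and Axin2 (-0.023) and Prom1 (-0.087) in treated MYO5BΔIEC against control. The cause was not tested. Leaving out 1 culture gave between 3 and 6 genes in MYO5BΔIEC, between 2 and 8 in MYO5B(G519R) and between 2 and 5 in treated MYO5BΔIEC, each against control, with the highest count in each case without control culture 1, and 0 in the other comparisons. In those fits the log2 fold change also crossed 0 for Smoc2 in MYO5BΔIEC (-0.076 to 0.091), Ascl2 in MYO5B(G519R) (-0.14 to 0.16), and Lgr5 (-0.70 to 0.026) and Prom1 (-0.020 to 0.29) in treated against control. In treated against untreated it crossed 0 for Olfm4 (-0.53 to 0.13), Ascl2 (-0.14 to 0.25), Axin2 (-0.27 to 0.075), Znrf3 (-0.055 to 0.076) and Myc (-0.044 to 0.11), and in MYO5B(G519R) against MYO5BΔIEC for Rnf43 (-0.15 to 0.00455), Sox9 (-0.10 to 0.019) and Myc (-0.13 to 0.021). Outside those fits, limma on log2(FPKM + 1) with no filter lost Olfm4 in MYO5B(G519R) (log2 difference -1.56, adjusted p = 0.0854). With the replicate number as a block, 3, 3 and 2 genes passed in MYO5BΔIEC, MYO5B(G519R) and treated MYO5BΔIEC against control and 0 in the other comparisons, so the pairing changed none of these counts. Deviations of same-numbered cultures correlated at 0.143, 0.0858, 0.513 and 0.599 in MYO5B(G519R) against MYO5BΔIEC, where the block raised the genes with an unadjusted p under 0.05 from 772 to 2532 (edgeR) with 1 gene past the threshold either way. There 3 of 4 numbers correlated best with their own, a hint from the data and not from the design. In the other comparisons they ranged from -0.225 to 0.264.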
